A study of Saccharomyces cerevisiae with 9 samples.

Results

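Divergent promoters of budding yeast were examined, at which 2 neighbouring genes are transcribed away from each other and the +1 nucleosomes of both genes face each other across one promoter. Members were pairs of adjacent divergent protein-coding genes whose start codons lie 150 to 1000 bp apart, and the +1 of a gene was the first WT nucleosome call in a window that opens 60 bp before its start codon and closes 120 bp behind it. Of 1226 such pairs, 1179 had a +1 call on both sides in the paired WT and ioc3Δ tables and are described here. The other 47 pairs lacked the call on 1 side. The rule used the annotation and the WT positions of paired calls, and no filter on low values was applied. Only WT calls paired with an ioc3Δ call, with a stated overlap of at least 73 bp, could become a +1. Beyond this pairing the positions in ioc3Δ were not used to choose any member.

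The +1 nucleosome is the first well-positioned nucleosome of a gene and borders a nucleosome-depleted promoter, and the nucleosomes behind it form a regular array into the coding region. ISW1a, a complex of the ISWI ATPase Isw1 and the subunit Ioc3, is a chromatin remodeler known to slide and space nucleosomes near promoters. At a divergent promoter both arrays start from the same depleted region, so that downstream of one gene is leftward and downstream of the other is rightward, and a shift in the direction of transcription on both sides lengthens the distance between both +1 dyads.

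MNase-seq, which maps nucleosomes as the DNA protected from micrococcal nuclease, was done on cells of the BY4742 background grown in YPD at 30 °C, with 3 samples per strain. The strains were WT ISW1a, in which IOC3 is intact, and ioc3Δ, in which it is deleted. A further table carries the label ioc3ΔcHLB, a strain in which a part of IOC3 that encodes the HLB domain was removed. A FLAG tag is listed for all strains, also for ioc3Δ, although by the study's methods the tag sits on IOC3. The authors merged the samples of a strain before they called nucleosomes, so no spread between samples can be given, no test across samples was possible, and each value below describes 1 merged WT and 1 merged mutant table. Intervals are distribution-free 95% intervals of a median and treat pairs or nucleosomes as independent.

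The paired tables held 51917 calls once repeats and the rRNA locus had been removed. Occupancies were whole multiples of 0.138 in WT and of 0.199 in ioc3Δ, within 1% of such a step, which was taken as 1 fragment. By this measure a facing +1 nucleosome held a median of 591 fragments in WT (range 2 to 24724) and of 352 in ioc3Δ (range 2 to 29298). The deleted gene was checked first: the 7 calls in IOC3 (chromosome VI, 169922 to 172285) held 0.574% of the WT occupancy in ioc3Δ.

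The DNA at the centre of 7 promoters is shown because their +1 pairs carry the patterns described below. Each line gives 120 bp centred between both WT +1 dyads, on the plus strand of sacCer3, so that the left gene is transcribed toward the 5′ end of the line and the right gene toward its 3′ end. Capitals mark TTACCCG (the motif of the general regulatory factor Reb1), TATAAA (the element bound by the TATA-binding protein), runs of at least 7 A or T, each on either strand, and, as a choice made after the pairs were seen, both outer triplets of the motif of the activator Gal4. DMA1-COX23, HMF1-PET117 and SED4-ATG15 are pairs whose +1 dyads lay farther out on both sides in ioc3Δ, RPB11-SIN3 is a pair whose dyads both lay farther to the right, and the other three are a pair with a Reb1 motif and textbook promoters.
DMA1-COX23 (chrVIII:341480-341599): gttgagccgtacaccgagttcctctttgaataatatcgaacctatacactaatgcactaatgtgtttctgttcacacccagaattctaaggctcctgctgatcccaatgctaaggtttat
HMF1-PET117 (chrV:271402-271521): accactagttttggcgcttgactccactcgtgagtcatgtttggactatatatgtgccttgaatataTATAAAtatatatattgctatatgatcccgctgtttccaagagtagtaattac
SED4-ATG15 (chrIII:236687-236806): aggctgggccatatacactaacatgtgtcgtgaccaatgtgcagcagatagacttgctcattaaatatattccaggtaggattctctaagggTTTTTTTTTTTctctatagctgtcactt
RPB11-SIN3 (chrXV:316497-316616): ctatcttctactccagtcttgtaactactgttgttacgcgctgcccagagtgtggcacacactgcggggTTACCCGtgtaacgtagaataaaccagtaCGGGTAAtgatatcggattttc
NOP14-RPN5 (chrIV:190694-190813): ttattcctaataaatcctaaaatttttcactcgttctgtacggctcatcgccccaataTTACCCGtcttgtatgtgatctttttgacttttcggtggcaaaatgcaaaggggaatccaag
GAL10-GAL1 (chrII:278564-278683): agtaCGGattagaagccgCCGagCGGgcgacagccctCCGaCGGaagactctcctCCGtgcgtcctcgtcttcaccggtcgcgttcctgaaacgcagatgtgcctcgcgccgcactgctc
MRM1-HIS3 (chrXV:721757-721876): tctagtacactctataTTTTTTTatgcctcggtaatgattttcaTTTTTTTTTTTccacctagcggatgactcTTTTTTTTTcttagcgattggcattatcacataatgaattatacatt

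In WT the facing +1 dyads lay a median of 473 bp apart (interquartile range 287.5 to 689.5 bp, range 172 to 1172 bp), and the start codons a median of 454 bp apart. The +1 dyad itself lay a median of 13 bp downstream of its start codon. No WT call lay between both +1 nucleosomes in 1053 pairs (89.3%), and 126 pairs had 1 to 4 calls there. Since 91.3% of all calls in the tables lie inside a coding region, a promoter without a call is not thereby shown to lack a nucleosome. A noncoding gene of the annotation lay between the start codons of 31 pairs.

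In ioc3Δ the facing +1 dyads lay slightly farther apart than in WT. The median change of the distance was 3 bp (interval 3 to 4, interquartile range 1 to 8, range -41 to 78, n = 1179), and the mean was 5.41 bp. The distance was longer in 903 pairs (76.6%), the same in 76 (6.45%) and shorter in 200 (17.0%), while it was longer at 46.1% of all neighbouring calls of the genome. It was longer by at least 10 bp in 237 pairs (20.1%), beside 18.5% of all neighbouring calls, and shorter by at least 10 bp in 35 pairs (2.97%), beside 18.2%. The share of distances longer by 10 bp was thus close to the background, and the share shorter by 10 bp was under it. Calls of the genome as a whole are broader than facing +1 calls (median dyad SD in WT 26.0 bp against 16.8 bp), so this background holds a wider spread in both directions.

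The size of the difference was near the limits of the measurement. From the dyad SDs and the number of fragments, the counting error of a distance change had a median of 1.99 bp (range 0.246 to 14.4 bp). With the mean of all dyads of a call in place of the called dyad, the median change was 6 bp (interval 5 to 6), and it exceeded 2 counting errors in 812 pairs (68.9%), of which 775 (95.4%) had the longer distance in ioc3Δ. This error covers the counting of fragments only, since PCR copies and differences between cultures are not seen in merged tables. The share of all neighbouring calls beyond 2 counting errors was not computed, so these counts describe the members only.

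Each side contributed about equally. The outward shift, counted in the direction of transcription, had a median of 1 bp for the left (minus-strand) +1 (interval 1 to 2, mean 2.66) and of 2 bp for the right (plus-strand) +1 (interval 1 to 2, mean 2.75). Of the 2358 facing +1 nucleosomes, 1580 (67.0%) lay farther downstream in ioc3Δ, 327 (13.9%) at the same base pair and 451 (19.1%) farther upstream, beside 65.1% farther downstream among all genes with a +1 call. A shift of at least 5 bp, counted here as a movement, was seen downstream for 499 (21.2%) and upstream for 111 (4.71%). Over all 5852 genes with a +1 call the same shares were 23.9% and 7.28%, so movements of facing +1 nucleosomes were no more frequent than those of +1 nucleosomes in general. A +1 dyad that lay 40 to 120 bp inside its gene in WT had a median outward shift of 3 bp (interval 2 to 3, n = 502), against 1 bp (interval 1 to 1, n = 1090) for one 0 to 39 bp inside and 1 bp (interval 1 to 2, n = 766) for one upstream of the start codon. Some calls far inside a gene could be its second nucleosome, as described below for SED4, and this was not tested.

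Both facing +1 dyads lay farther out by any size in 526 pairs (44.6%), beside 14.7% of neighbouring calls, both lay farther in in 45 (3.82%), and both lay displaced the same way along the chromosome in 306 (26.0%). By the 5 bp threshold, both moved away from each other in 58 pairs (4.92%), beside 3.34% of all neighbouring calls, and both moved toward each other in 5 pairs (0.424%), beside 4.01%. Both moved the same way along the chromosome in 30 pairs (2.54%). A single +1 moved outward in 353 pairs (29.9%), a single +1 moved inward in 71 (6.02%), and neither moved in 662 (56.1%). Outward movements were thus mostly one-sided. The share over all neighbouring calls was not computed for inward displacement of any size, displacement the same way, or movement of 1 or neither dyad. Those counts describe the members only.

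**Figure D1:**
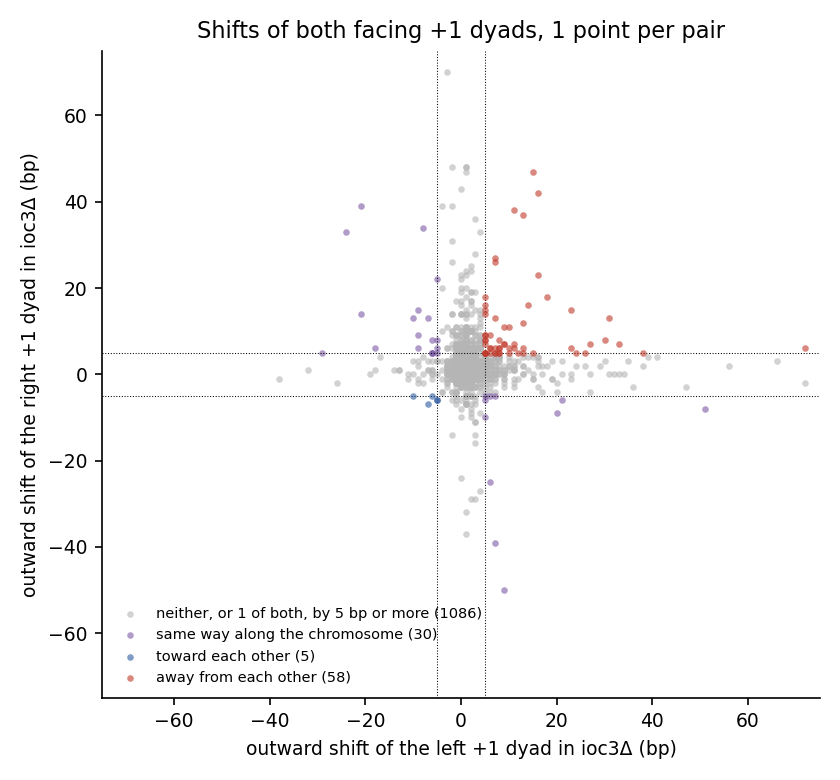
Outward shift in ioc3Δ of the left +1 dyad (x axis, bp) against that of the right +1 dyad (y axis, bp), 1 point for each of 1179 divergent pairs, with dotted lines at 5 bp either way. Red marks the 58 pairs whose dyads both moved away from each other, blue the 5 that moved toward each other and purple the 30 that moved the same way, while most pairs lie near the origin or along 1 axis.

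The shift on one side told little of the shift on the other. The right +1 moved outward in 58 of the 225 pairs (25.8%) whose left +1 did, and in 216 of the 954 pairs (22.6%) whose left +1 did not. For shifts of any size the shares were 65.8% of 799 pairs and 67.1% of 380. Across pairs the left and right outward shifts had a Pearson correlation of -0.035 and a Spearman correlation of -0.002 (n = 1179 pairs, all from the same libraries), given as a description. Of the 903 pairs with a longer distance, 526 had both dyads farther out by any size. The sizes of both shifts varied almost without regard to each other.

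The 58 pairs that moved apart on both sides were a group defined by this outcome, and their values are given as a description. Their distance was longer by a median of 18.5 bp (interquartile range 13.25 to 32.5). Their WT +1 dyads lay a median of 687.5 bp apart, against 466 bp in the other 1121 pairs, and their WT +1 calls were less sharply placed, with a median dyad SD of 20.0 bp against 16.6 bp. By the mean dyad, both shifts were outward in 58 of 58 pairs and reached 5 bp on both sides in 39. The mean dyad belongs to the same calls by which the pairs were picked, so it is no independent check. Over all members the mean dyad gave 116 pairs (9.84%) that moved apart on both sides, beside 4.8% of neighbouring calls by the same measure.

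The distance between the facing dyads in WT went with the size of the difference. Pairs under 350 bp (n = 432) had a median change of 2 bp (interval 2 to 3), pairs of 350 to under 550 bp (n = 264) of 4 bp (3 to 5), pairs of 550 to under 750 bp (n = 257) of 6 bp (4 to 7), and pairs of 750 bp or more (n = 226) of 5 bp (4 to 6). The distance was longer by at least 10 bp in 6.02% of the closest pairs, and in 22.0%, 34.2% and 28.8% of the wider ones. Both dyads moved apart in 3 of 432, 6 of 264, 26 of 257 and 23 of 226 pairs (0.694%, 2.27%, 10.1% and 10.2%), so 49 of the 58 such pairs had WT dyads at least 550 bp apart.

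The sharpness of the calls moved with this distance. The WT dyad SD of the facing +1 nucleosomes had a median of 15.3 bp in the closest pairs, 16.6 bp and 18.2 bp in the next ones and 19.7 bp in the widest. The changes were also taken with broad calls left out. The limit for this was the median of all calls (26.0 bp in WT), above that of facing +1 calls (16.8 bp). The SD was not matched between the ranges, so its part in the result was not tested. With all 4 SDs at or under the median of all calls, the median changes were 2, 4, 5 and 5 bp (n = 407, 210, 179 and 128). With no call between both +1 nucleosomes they were also 2, 4, 5 and 5 bp (n = 419, 238, 220 and 176). Across pairs the WT distance had a Spearman correlation of 0.217 with the change and of 0.381 with the mean SD (n = 1179, a description over pairs of the same libraries).

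**Figure D2:**
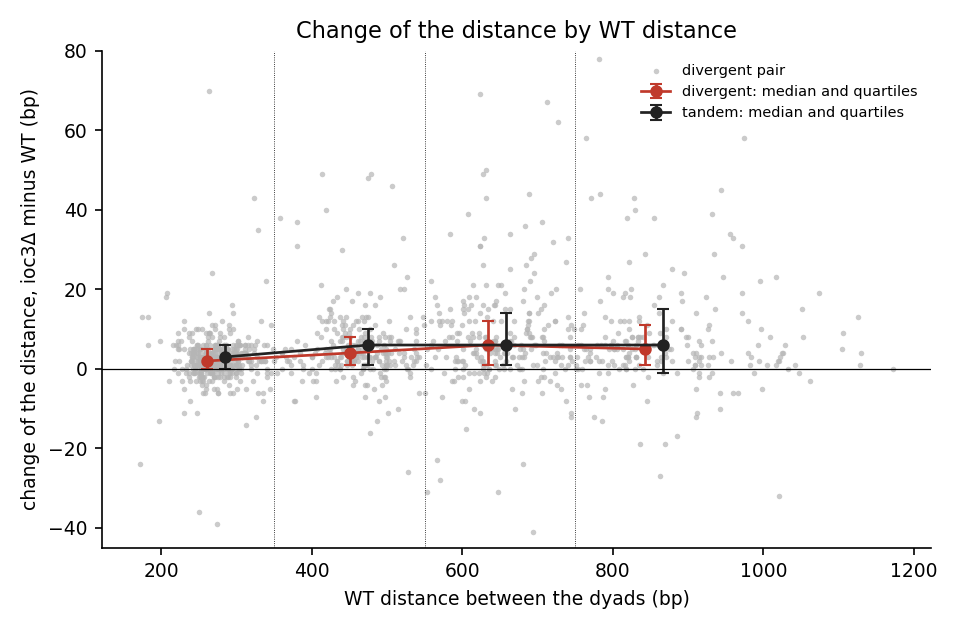
Change of the distance in ioc3Δ (y axis, bp) against the WT distance (x axis, bp) for 1179 divergent pairs (grey points), with the median and quartiles in 4 ranges of WT distance for divergent pairs (red) and for tandem promoters (black, distance from the +1 to the next call upstream). Medians are 2, 4, 6 and 5 bp at divergent pairs and 3, 6, 6 and 6 bp at tandem promoters; quartiles overlap in every range.

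Pairs were named from the 745 whose 4 occupancies were at or above the lower quartile and whose 4 SDs were at or under the upper quartile of all calls. Ranked by the smaller of both outward shifts, the first of them was DMA1-COX23 on chromosome VIII, which encode a ubiquitin ligase of the mitotic spindle checkpoint and a mitochondrial protein needed for cytochrome oxidase. The left dyad went from 341319 in WT to 341305 in ioc3Δ and the right dyad from 341759 to 341775, so the distance was 440 bp in WT and 470 bp in ioc3Δ. These shifts of 14 and 16 bp were 8 and 9 bp by the mean dyad, with a counting error of the change of 1.08 bp. The distance was longer by 30 bp by the called and by 17 bp by the mean dyad. Both positions belong to the same calls, and the pair was picked by the called ones.

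The next by this ranking was YBR182C-A-YPC1, with outward shifts of 13 and 37 bp and a larger change of the distance, of 50 bp by the called and 20 bp by the mean dyad. YPC1 encodes a ceramidase. At YDR249C-PAM1 the shifts were 13 and 12 bp, from a distance of 878 bp to 903 bp, and at YER181C-FMP10 they were 9 and 11 bp, from 724 bp to 744 bp. HMF1-PET117, the latter a cytochrome oxidase assembly factor, had shifts of 9 and 7 bp around the TATA-bearing centre shown above, from 627 bp to 643 bp. AHC1-HST3, which encode a subunit of the ADA acetyltransferase complex and a Sir2-family histone deacetylase, also had shifts of 9 and 7 bp, from 602 bp to 618 bp.

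BUD14-ADE1, the latter an enzyme of purine synthesis, had a shift of 6 bp on each side, and SED4-ATG15, an endoplasmic reticulum protein and a vacuolar lipase, had 6 and 9 bp. At some of the ranked pairs 1 facing nucleosome also had a far higher occupancy in ioc3Δ, while at others occupancies were lower. The occupancy, not scaled, was 532 in WT and 1343 in ioc3Δ for BUD14, 248 and 686 for PET117, 323 and 634 for COX23, and 455 and 915 for HST3. The facing partners had smaller differences, from 100 to 106 for ADE1 and from 109 to 118 for HMF1. DMA1 went from 140 to 196 and AHC1 from 142 to 170. At YBR182C-A-YPC1 both occupancies were lower in ioc3Δ, from 53.29 to 30.88 and from 144.8 to 121.1. Lower values were also seen for YDR249C (50.39 and 31.68), YER181C (60.47 and 40.24) and ATG15 (165.4 and 104.6). Their partners PAM1 (79.11 and 95.03), FMP10 (50.81 and 69.33) and SED4 (96.64 and 97.62) were higher. The share of such differences over all calls was not computed, and the part of the occupancy in the shifts was not tested.

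**Figure D3:**
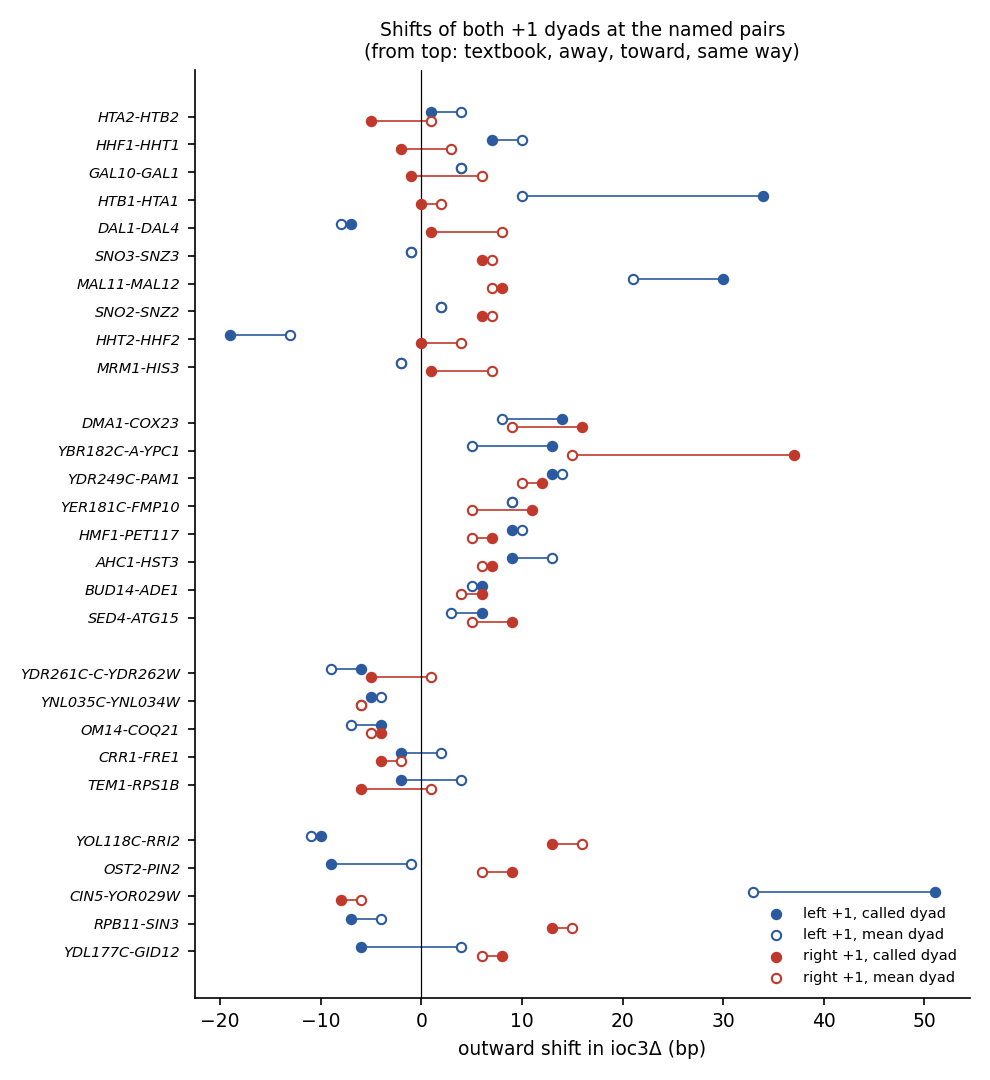
Outward shift in ioc3Δ (x axis, bp) of the left (blue) and right (red) +1 dyad at the named pairs, by the called dyad (filled) and the mean dyad (open, which covers the filled point where both are equal). From the top, the groups are 10 textbook pairs, 8 pairs that moved apart, 5 that lay closer and 5 displaced the same way. Filled and open points lie farthest apart at HTB1, with 34 and 10 bp.

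Textbook divergent promoters differed in direction by the called dyad and less so by the mean dyad. Of 12 listed pairs 10 met the rule, and their median distance change was 4 bp, against 3 bp over all members, with 2 longer and 1 shorter by at least 10 bp. By the called dyad 6 were longer and 4 shorter, and by the mean dyad 8 were longer, 1 was the same and 1 was shorter. The mean dyad gave a longer distance in 87.2% of all members, beside 49.5% of neighbouring calls. At GAL10-GAL1, enzymes of galactose use that are repressed in the glucose medium used here, the dyads lay 679 bp apart in WT and 682 bp in ioc3Δ, with outward shifts of 4 and -1 bp. By the mean dyad the shifts were 4 and 6 bp and the distance 10 bp longer, with a counting error of 4.51 bp, and the GAL1 +1 held 252 fragments in WT and 52 in ioc3Δ. At MRM1-HIS3, whose promoter holds the runs of T shown above, the distance was 299 bp in WT and 298 bp in ioc3Δ, and HIS3 carries a partial deletion in BY4742.

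The 4 histone pairs differed among themselves. HTA2-HTB2 had outward shifts of 1 and -5 bp, HHF1-HHT1 of 7 and -2 bp, HTB1-HTA1 of 34 and 0 bp, and HHT2-HHF2 of -19 and 0 bp. Their +1 calls were broad, with dyad SDs of 20.8 to 37.2 bp in WT, and by the mean dyad the left HTB1 shift was 10 bp and the left HHT2 shift -13 bp. MAL11-MAL12, maltose genes near a telomere, was the textbook pair with both dyads outward by at least 5 bp, by 30 and 8 bp with 3 calls between them. SNO2-SNZ2 (2 and 6 bp) and SNO3-SNZ3 (-1 and 6 bp), of vitamin B6 synthesis, are near-identical copies of each other, so that reads can be split between copies and these values are uncertain. Histone and maltose genes also have related copies in the genome, and whether reads were split between those was not tested.

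Displacement toward each other was rare and small. Under the same limits on occupancy and SD, the first pairs ranked by the smaller of both inward shifts had 6 and 5 bp at YDR261C-C-YDR262W, 5 and 6 bp at YNL035C-YNL034W, and 4 and 4 bp at OM14-COQ21. The dyads of the last pair lay 378 bp apart in WT against 370 bp in ioc3Δ. CRR1-FRE1 and TEM1-RPS1B, the latter pair a GTPase of mitotic exit and a ribosomal protein, followed with 2 and 4 bp and with 2 and 6 bp, and the TEM1-RPS1B distance was 8 bp shorter by the called dyad but 5 bp longer by the mean dyad. By the mean dyad the right dyad of YDR261C-C-YDR262W also lay 1 bp outward and the CRR1-FRE1 distance was the same in both strains, while YNL035C-YNL034W and OM14-COQ21 kept both dyads inward.

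Displacement of both dyads in one direction went with small and large changes of the distance. At RPB11-SIN3, which encode an RNA polymerase II subunit and the scaffold of the Rpd3 deacetylase complex, the left dyad lay 7 bp inward and the right dyad 13 bp outward, and the distance was 754 bp in WT and 760 bp in ioc3Δ. Its centre holds the Reb1 motif on both strands. YOL118C-RRI2 (-10 and 13 bp), OST2-PIN2 (-9 and 9 bp) and YDL177C-GID12 (-6 and 8 bp) had the same rightward pattern by the called dyad. By the mean dyad it was -4 and 15 bp at RPB11-SIN3 and -11 and 16 bp at YOL118C-RRI2, but -1 and 6 bp at OST2-PIN2, and both dyads lay outward at YDL177C-GID12, by 4 and 6 bp. CIN5-YOR029W was displaced to the left, by 51 bp outward at CIN5, a leucine zipper transcription factor, and by 8 bp inward at its partner, so that its distance went from 323 bp to 366 bp.

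Pairs with a gene of a listed pathway had median changes of 1 to 6 bp. The median change was 4 bp in 47 pairs with a cytosolic ribosomal protein gene, 3 bp in 36 with a mitochondrial ribosomal protein gene and 3 bp in 27 with a ribosome biogenesis gene. It was 4 bp in 18 pairs with a proteasome gene, 1 bp in 22 with a DNA replication gene, 2 bp in 23 with an amino acid synthesis gene and 6 bp in 7 with a heat shock chaperone gene, against 3 bp over all 1179 pairs. Of the 47 cytosolic ribosomal protein pairs, 16 (34.0%) were longer by at least 10 bp and 3 (6.38%) shorter, beside 20.1% and 2.97% of all members. Both dyads moved apart in 6 (12.8%) and toward each other in 2 (4.26%), beside 4.92% and 0.424% of all members. Of the 50 +1 calls of the ribosomal protein genes themselves, 12 moved outward and 9 inward, beside 21.2% and 4.71% of all facing +1 nucleosomes. The WT distance was not matched between these pairs and all members. Of the 36 mitochondrial ribosomal protein pairs 3 were longer by at least 10 bp, none was shorter and none had joint movements, beside 20.1% and 4.92% of all members.

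Large shifts at single members of these lists were on one side or on both. At FUI1-PRE7, a uridine permease and a proteasome subunit, both dyads lay outward, by 26 and 5 bp by the called and 16 and 4 bp by the mean dyad. At RPN6-PMT1 (a proteasome lid subunit and a protein mannosyltransferase) the left dyad lay 2 bp inward and the right 39 bp outward, and at YFL015C-HSP12, a heat shock gene, 4 bp inward and 39 bp outward. At PPS1-DPB3, the latter a DNA polymerase epsilon subunit, the left dyad lay 1 bp outward and the right 37 bp inward. By the mean dyad the larger shifts at RPN6-PMT1, YFL015C-HSP12 and PPS1-DPB3 were 9, 24 and -16 bp. By position, a call between the dyads of YFL015C-HSP12 could be the first nucleosome of HSP12, and the +1 of the rule the second. At NOP14-RPN5, with the Reb1 motif shown above, both dyads lay 2 bp outward, from 323 bp to 327 bp, and at RFA1-SEN34 the distance was 275 bp in WT and 274 bp in ioc3Δ.

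The second nucleosomes of both genes lay farther apart by more than the first. In the 1075 pairs with a +2 call on both sides, the distance between both +2 dyads was longer by a median of 9 bp (interval 8 to 9, interquartile range 4 to 15), against 3 bp (interval 3 to 4) between both +1 dyads of the same pairs. It was longer in 934 pairs (86.9%) and by at least 10 bp in 484 (45.0%). Both +2 dyads moved outward in 218 pairs (20.3%) and both +1 dyads in 49 of the same pairs (4.56%), and both +2 moved inward in 2. Taken singly, 44.1% of the 2250 +2 nucleosomes of these pairs moved downstream, beside 42.1% over all genes with a +1 and a +2 call and 43.5% of 2237 at tandem promoters, so a +2 movement was about as frequent at other genes. All 4 dyads lay farther out, by any size, in 340 pairs (31.6%). Shares of longer +2 distances and of joint +2 movements were not computed outside the members. Those counts of pairs therefore describe the members only.

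The left and right sides were as loosely related at +2 as at +1. The right +2 moved outward in 46.0% of the 474 pairs whose left +2 did and in 43.4% of the 601 whose left +2 did not, and the Pearson correlation of both shifts was -0.019 (n = 1075 pairs). Within a gene the relation was closer, with a Pearson correlation of 0.41 and a Spearman correlation of 0.333 between the +1 and +2 shifts of 2250 genes, neighbouring calls of the same libraries. In 723 pairs with +1 to +4 on both sides, the distance change had a median of 3 bp at +1 (interval 3 to 4), 9 bp at +2 (8 to 10), 10 bp at +3 (8 to 10) and 9 bp at +4 (7 to 10). The spread widened outward, with an interquartile range of 1 to 7 bp at +1 and of 1 to 20 bp at +4.

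**Figure D4:**
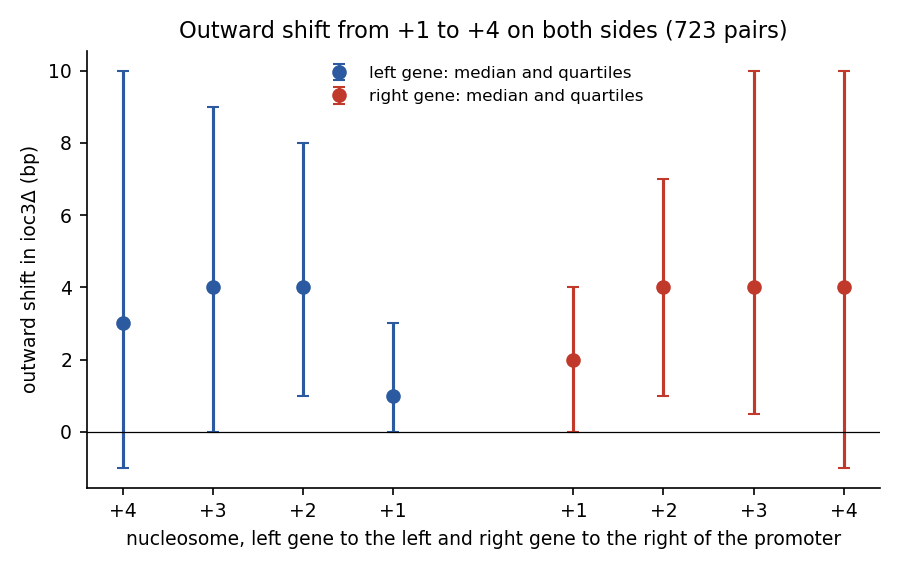
Outward shift in ioc3Δ (y axis, bp) of the +1 to +4 nucleosomes of the left gene (blue) and the right gene (red) in 723 divergent pairs, as the median (point) and quartiles (bars). The medians at +1 are 1 and 2 bp, and those at +2 are 4 bp on both sides.

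Tandem promoters, where the upstream neighbour is transcribed in the same direction, served as a reference in the same tables. The +1 of 2344 such genes had a median downstream shift of 2 bp (interval 2 to 2, mean 2.68) and moved downstream in 597 (25.5%), against 21.2% of facing +1 nucleosomes. The distance from the +1 to the next call upstream, usually in the body of the upstream gene, was longer by a median of 4 bp (interval 4 to 4, n = 2250), and by at least 10 bp in 590 (26.2%), against 3 bp and 20.1% at divergent pairs. Both calls moved apart in 179 (7.96%), against 4.92%, and the next upstream call itself lay a median of 2 bp farther from the promoter.

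A longer distance across the promoter was thus measured whether the nucleosome on the other side was a +1 or not. No test across samples could be made of the differences between both kinds of promoter. The tandem distances were also shorter in WT (median 428 bp against 473 bp), and their +1 calls were broader (median SD 18.3 bp against 16.8 bp). Within ranges of WT distance the tandem medians were 3 bp (n = 937), 6 bp (n = 717), 6 bp (n = 368) and 6 bp (n = 228), beside the divergent medians of 2, 4, 6 and 5 bp.

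**Figure D5:**
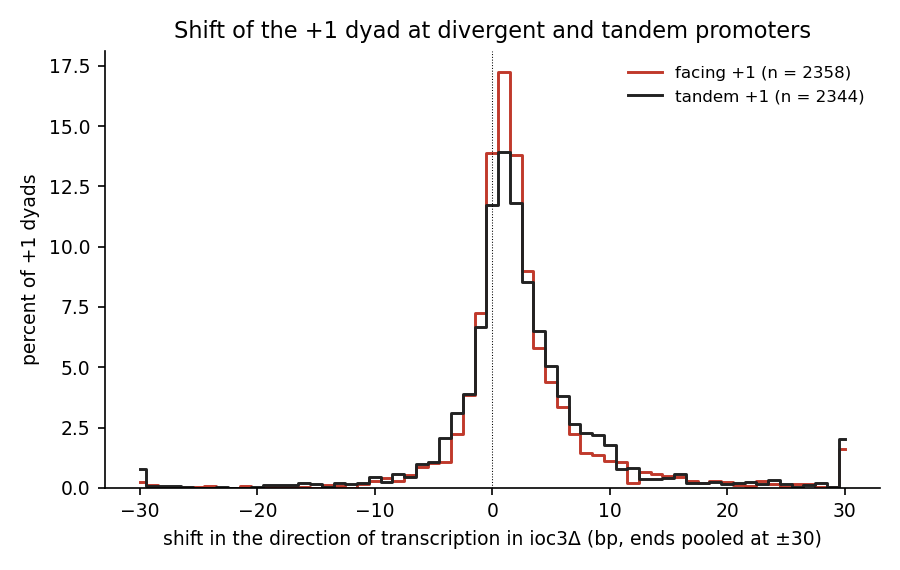
Share of +1 dyads (y axis, percent) by shift in the direction of transcription in ioc3Δ (x axis, bp, larger shifts pooled at 30 bp either way) for 2358 facing +1 nucleosomes (red) and 2344 tandem ones (black). Both curves peak just above 0, and 67.0% of facing and 66.2% of tandem dyads lie above 0.

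The 165 WT calls that lay between facing +1 nucleosomes in 126 pairs had a median displacement along the chromosome of 0 bp (interval -1 to 0, interquartile range -4 to 2). In pairs with such a call the distance was longer by a median of 6 bp (interval 4 to 8, n = 126), against 3 bp (interval 3 to 4, n = 1053) without one. Between SED4 and ATG15, for example, 1 call, at 236386 in WT, lay 2 bp farther to the left in ioc3Δ. The dyads beside it lay 6 and 9 bp farther out. This call lay just beyond the 60 bp limit upstream of the SED4 start codon (236322), while the SED4 +1 dyad was at 236221. Its WT occupancy was 179.203, against 96.64 for the SED4 +1. By position it could be the first nucleosome of SED4, and the +1 of the rule the second. Calls between also lay upstream of the +1 window at other genes, among them AHC1, CIN5, MAL11 and HSP12. At HSP12 (start codon 107256) the call was at 107184 in WT and the +1 of the rule at 107344. Their WT occupancies were 33.135 and 64.2. Whether such calls bear on the medians of 6 and 3 bp was not tested.

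The occupancy of facing +1 nucleosomes, a coverage signal with no fixed unit, differed little between the strains once scaled to other calls. The ratio of ioc3Δ to WT had a median of 0.898 before scaling, and of 1.007 (interval 0.993 to 1.02, interquartile range 0.815 to 1.244, n = 2358) after division by the median ratio of all calls, 0.892. At tandem +1 nucleosomes the scaled ratio was 0.945 (interval 0.932 to 0.961). The log2 ratios of the left and right nucleosome of a pair had a Pearson correlation of 0.209 and a Spearman correlation of 0.189 (n = 1179, a description), while their shifts had -0.035. Ratios by WT distance lay between 0.995 and 1.027.

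Facing +1 nucleosomes were among the sharper calls and had a larger dyad SD in ioc3Δ. Its median was 16.8 bp for WT and 19.0 bp for ioc3Δ, while WT calls as a whole had 26.0 bp, and it was higher in ioc3Δ for 1973 of 2358 (83.7%), by a median of 1.84 bp (interval 1.75 to 1.94). Both members of a pair had the higher SD in 839 pairs (71.2%). Over all calls the median difference was 2.41 bp (interquartile range 0.248 to 4.756), so a higher SD was also usual there. At tandem +1 nucleosomes the median difference was 1.93 bp. The shares of all calls and of neighbouring calls with a higher SD were not computed, so both counts describe the members only. The table labelled ioc3ΔcHLB had SDs a further 2.27 bp above those of ioc3Δ at the same facing calls, although its occupancies were nearly the same, so a difference of this size also arose between both mutant tables.

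That table gives a measure of how far a called dyad can differ without a difference in occupancy. IOC3 held 0.68% of its WT occupancy in it, and 86.3% of 2356 facing +1 calls had an occupancy within 1% of that in ioc3Δ, against 1.87% for WT and ioc3Δ, so the table is named here by its label only and is no independent repeat. Its mean dyad lay within 1 bp of that in ioc3Δ for 91.1% of these calls, but its called dyad for only 53.0%, and at least 5 bp away for 13.3%. Of the 58 pairs that moved apart on both sides in ioc3Δ, 20 did so in this table, where the median distance change was 3 bp (interval 2 to 3, n = 1187).

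The sequence at the centre of the promoters was examined over 200 bp. TTACCCG was found in 79 of 1179 windows (6.7%) at divergent promoters and in 6.93% of 2250 windows at tandem promoters, midway between the +1 and the next upstream call. TATAAA was found in 27.2% against 39.2%, and a run of at least 7 A or T in 38.8% against 46.0%, with a median GC content of 36.5% against 34.0%. In the 120 bp shown above, the Gal4 motif was found in 11 of all 1179 windows (0.933%), with 3 matches at GAL10-GAL1, TTACCCG in 4.66%, TATAAA in 17.9% and a run in 27.8%. The motifs do not overlap each other in the lines shown, and a match is no evidence of binding.

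With and without each motif the median change of the distance differed by 1 bp. It had a median of 4 bp (interval 3 to 5, n = 79) with TTACCCG and of 3 bp (interval 3 to 4, n = 1100) without it, of 4 bp (3 to 4, n = 321) with TATAAA and 3 bp (3 to 4, n = 858) without, and of 4 bp (3 to 4, n = 457) with a run of A or T and 3 bp (3 to 4, n = 722) without. In the pairs under 350 bp, where the window fills most of the space between both nucleosomes, the medians were 4 bp (interval 2 to 5, n = 33) with TTACCCG and 2 bp (interval 2 to 3, n = 399) without, while they were 2 bp with and 3 bp without TATAAA and 2 bp with and without a run. In the pairs of 350 bp or more they were 5 bp with and without TTACCCG, 5 bp with and without TATAAA, and 5 bp with and 4 bp without a run. Both dyads moved apart in 8 of the 79 pairs with TTACCCG (10.1%) and in 50 of the 1100 without it (4.55%). The shares were 5.3% with and 4.78% without TATAAA, and 5.47% with and 4.57% without a run. These shares were not split by WT distance, the first rests on 8 pairs, and a part of the motif was not tested.

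Pairs just inside the limits on start codon spacing were ACF2-RMP1 and NSG1-WSS1 at 152 bp, with distance changes of 3 and 5 bp, and VPS25-URA8 at 989 bp and LAM5-YFL041W-A at 990 bp, with 2 and 8 bp. Just outside were COA1-ATG44 at 148 bp and GDH1-YOR376W at 149 bp, with 2 and 4 bp, and MNT2-ADH4 at 1002 bp and GSP2-YOR186W at 1005 bp, with -7 and -5 bp.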

How the data were processed

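Nucleosomes were mapped by MNase-seq in 9 samples, 3 per strain. Per the study's methods and the submitters' processing notes, the authors mapped paired-end reads to sacCer3 with Bowtie2 2.0, removed reads of the rRNA locus (chromosome XII, 451275 to 469084), placed a dyad at the midpoint of each read pair, scaled the dyad density by average coverage and called nucleosomes on merged samples with a greedy algorithm. The deposited occupancy is a signal relative to that coverage, and the deposited dyad, mean dyad and dyad SD are in bp. WT and mutant rows are paired, with a stated overlap of at least 73 bp, so larger shifts cannot be seen.

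Of 53840 rows, 1911 repeats and 12 rRNA calls were dropped here. Gene models came from the RefSeq annotation of the same assembly (R64), with 6002 protein-coding genes, 5852 of which had a +1 call. A +2, +3 or +4 was the nearest call 110 to 230 bp farther into the gene. Neighbouring calls are adjacent paired calls of a chromosome. Medians have distribution-free 95% intervals. The counting error is the SD divided by the square root of the fragments, summed in squares over 4 calls. Named pairs were textbook pairs, pairs ranked highest by the smaller of both shifts (8 outward, 5 inward, 5 the same way) among 745 pairs whose occupancies were at or above the lower quartile and whose SDs were at or under the upper quartile of all calls, and up to 4 pairs per gene list. Pairs just outside the rule were named for their place there. The members, lists and tests were chosen with earlier results of these data known. Calculations were tested on simulated data. Scripts ran on Python 3.11.15 with pysam 0.24.0, pandas 2.3.3, numpy 2.4.6, matplotlib 3.10.9 and scipy 1.17.1.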

Additional observations from a re-analysis of the deposited data

How the results depend on the processing

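The median distance change kept its direction in each of the 15 alternatives run. It was 3 to 4 bp in 13 of them, among them another choice or window of the +1, filters on occupancy, SD, fragments (added after the data were seen), spacing and gene length, and the table labelled ioc3ΔcHLB. It was 6 bp with the mean dyad column and 5.41 bp as a mean in place of the median. Not all alternatives were separate checks. With repeated rows kept, or with the call nearest to the start codon, 58 of 1179 pairs moved apart, as in the main setting. The table labelled ioc3ΔcHLB is no independent repeat. The share of pairs that moved apart on both sides, 4.92%, was 3.45% to 5.16% in 10 alternatives. It was 9.84% with the mean dyad column, 3.25% with dyad SDs at or under the median, 2.98% with start codons 200 to 600 bp apart, 2.86% in the table labelled ioc3ΔcHLB, 44.6% for movements of at least 1 bp, 0.933% for movements of at least 10 bp, and 1.78% (21 pairs) with the unequal-variance test of the methods, rebuilt with occupancies as numbers of observations, at an unadjusted p under 0.01. The size that counts as a movement sets these last shares by construction, and for the others the cause was not tested. The occupancy ratio of facing +1 nucleosomes was 0.898 without scaling and 1.25 as an unscaled ratio of summed occupancies, against 1.007. The SD difference was 1.69 bp in the upper 75% of occupancy and 2.1 bp as a mean, against 1.84 bp. No paired analysis was possible because the deposited columns are merged over samples and carry no replicate number. Leaving out a sample was not possible either.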
